A study of Mus musculus with 24 samples.

Results

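The neutrophil granule genes described here are *S100a8*, *S100a9*, *Camp*, *Ngp*, *Ltf*, *Elane*, *Mpo*, *Csf3r* and *Retnlg*. They were taken from the arrays by the accession of each probe, which gave 10 probes for 9 genes out of 55681 probes for 21368 named genes. *Camp* had 2 probes and every other gene had 1. The rule used no measured value, but the members were chosen with earlier results of these data known. Neutrophils are short-lived white blood cells that are made in the bone marrow and circulate in blood. They store their antimicrobial proteins in granules that form in a fixed order during maturation, with the azurophil granules made at the promyelocyte stage and the specific granules made later. Transcripts for granule proteins are therefore abundant in maturing neutrophils of the marrow, whereas *S100a8* and *S100a9* transcripts stay abundant in the mature cell.

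The samples were liver, brain, heart and skeletal muscle from 6 male mice, 3 wild-type (WT) and 3 homozygous for a *Rap1* knock-in allele (*Rap1* KI/KI), with 1 array for each mouse and tissue. The allele was made with CRISPR/Cas9 and carries the substitution I312R in RAP1, a telomere protein that is held at telomeres by TRF2, and the line was backcrossed to C57BL/6N mice, a strain that the labels give as C57BL6. The change is present in every cell of the mouse. WT1 and KI1 were 5 months old and WT2, WT3, KI2 and KI3 were 2 months old, so each genotype holds 1 older mouse. The study asked what a RAP1 protein that cannot bind telomeres does to transcripts in each tissue.

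Levels are log2 processed intensities after the 75th percentile of the same array was set to 0. A difference of 1 between levels is a change in intensity by a factor of 2. Each comparison is between arrays for the same probe, and the brightness of different probes served only to choose which genes of a list are named and as the weight of each gene in a summed level. The 75th percentile ranged from 470.7 to 1389 intensity units over the 24 arrays and from 470.7 to 529.2 over the muscle arrays. All muscle arrays shared a slide, as did all liver arrays. The brightest genes of each tissue list were highest in the tissue named by the label. *Alb* averaged 9.21 in liver and at most 0.93 elsewhere, *Syt1* averaged 6.68 in brain and at most 1.86 elsewhere, *Myh6* averaged 8.87 in heart and at most 0.42 elsewhere, and *Acta1* averaged 9.85 in muscle and at most 4.49 elsewhere. The RAP1 gene itself, *Terf2ip*, was well above background on all 24 arrays, at 1.36 to 1.51 in WT muscle and 0.88 to 1.44 in *Rap1* KI/KI muscle. A point substitution is not expected to remove this transcript, so its level does not check the genotype labels.

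Among the members, *S100a8* and *S100a9* encode the subunits of calprotectin, a calcium-binding protein of the neutrophil cytosol. *Camp* (cathelicidin), *Ngp* (neutrophilic granule protein) and *Ltf* (lactoferrin) belong to the specific granules. *Elane* (neutrophil elastase) and *Mpo* (myeloperoxidase) belong to the azurophil granules. *Retnlg* encodes a resistin-like secreted protein of myeloid cells, and *Csf3r* encodes the receptor for granulocyte colony-stimulating factor, so *Csf3r* and the calprotectin pair are neutrophil genes without being granule contents. On build GRCm38.p6, *S100a8* (chr3:90669071-90670034) and *S100a9* (chr3:90692630-90695721) lie on chromosome 3. *Camp* (chr9:109847377-109849456), *Ngp* (chr9:110419808-110423012) and *Ltf* (chr9:111019292-111042766) lie on chromosome 9. *Csf3r*, *Elane*, *Mpo* and *Retnlg* are on chromosomes 4, 10, 11 and 16. The probes of *S100a8*, *S100a9*, *Camp*, *Elane* and *Csf3r* were well above background on 24 of 24 arrays. That count was 21 for *Ltf* and *Mpo*, 18 for *Retnlg* and 12 for *Ngp*. No array was saturated for any member.

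The 150 bases in front of the annotated start are shown for 4 members whose levels rose and fell together across the arrays (*S100a8*, *S100a9*, *Ngp* and *Ltf*) and for the 2 that did not follow them (*Elane* and *Csf3r*). The sequences are RefSeq on build GRCm38.p6, read 5′ to 3′ on the strand of the gene. Capitals mark TTNNGNAA, a loose form of the motif bound by C/EBP factors, and GAGGAA, the core bound by PU.1, each searched on both strands, where matches of the one may overlap the other.
*S100a8*, chr3:90668921-90669070 (plus strand): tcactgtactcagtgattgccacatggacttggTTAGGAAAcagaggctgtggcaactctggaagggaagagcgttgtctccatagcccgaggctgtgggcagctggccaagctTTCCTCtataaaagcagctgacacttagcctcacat
*S100a9*, chr3:90695722-90695871 (minus strand): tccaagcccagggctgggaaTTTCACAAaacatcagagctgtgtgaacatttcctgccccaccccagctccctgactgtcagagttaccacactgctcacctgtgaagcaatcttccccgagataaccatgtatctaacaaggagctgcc
*Ngp*, chr9:110419658-110419807 (plus strand): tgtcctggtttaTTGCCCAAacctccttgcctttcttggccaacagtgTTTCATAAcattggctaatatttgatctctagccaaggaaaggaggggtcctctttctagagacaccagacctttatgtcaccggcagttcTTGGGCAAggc
*Ltf*, chr9:111019142-111019291 (plus strand): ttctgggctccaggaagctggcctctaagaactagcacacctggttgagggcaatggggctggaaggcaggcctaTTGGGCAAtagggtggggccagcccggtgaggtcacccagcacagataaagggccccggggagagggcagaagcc
*Elane*, chr10:79886162-79886311 (plus strand): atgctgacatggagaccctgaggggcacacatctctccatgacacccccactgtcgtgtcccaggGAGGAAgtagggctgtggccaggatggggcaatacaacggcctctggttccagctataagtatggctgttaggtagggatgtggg
*Csf3r*, chr4:126024509-126024658 (plus strand): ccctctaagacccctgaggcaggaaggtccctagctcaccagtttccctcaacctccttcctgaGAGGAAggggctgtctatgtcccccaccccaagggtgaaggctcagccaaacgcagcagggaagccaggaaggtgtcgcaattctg
Over the 250 bases in front of the start, TTNNGNAA was found at 5 of 9 members, against 36.8% of all 32851 promoter windows in the table. GAGGAA was also found at 5 of 9 members, against 23.3% of windows. Both were found at 2 of 9 (*S100a8* and *Ltf*), against 8.87% of windows. Of the members shown, *S100a9* and *Ngp* hold only TTNNGNAA in these 250 bases, and *Elane* and *Csf3r* only GAGGAA. Of the members not shown, *Retnlg* holds only TTNNGNAA, *Mpo* only GAGGAA and *Camp* neither. The motifs thus do not divide the members that rose and fell together from the others. The window of *Csf3r* lies inside the annotated gene, which spans chr4:126023441-126044975. A match of letters is a description and was not tied to binding.

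In skeletal muscle, 7 of the 9 members were far brighter on 1 *Rap1* KI/KI array (KI1) than on any other and second highest on another (KI3), whereas the third (KI2) lay near or among the WT levels. *S100a8* measured -3.11, -1.20 and -3.16 in WT1, WT2 and WT3 and 3.74, -1.12 and 1.08 in KI1, KI2 and KI3. *S100a9*, its partner in calprotectin, measured -0.75, 0.91 and -0.87 in the WT muscles and 5.92, 1.03 and 3.1 in the *Rap1* KI/KI muscles. For both genes the groups did not overlap, but KI2 lay only just above WT2.

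*Camp*, the cathelicidin gene, measured -2.61, -1.75 and -3.31 in WT and 3.66, -2.69 and 0.48 in *Rap1* KI/KI muscle. Its second probe measured -2.98, -2.52 and -3.47 in WT and 2.54, -3.36 and -0.58 in *Rap1* KI/KI muscle. Over 24 arrays the levels of the *Camp* probes correlated at r = 0.982. KI2 fell among the WT muscles, and KI1 and KI3 stood above all of them, for both probes.

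*Ngp* measured -6.74, -4.77 and -7.39 in WT and 0.81, -7.37 and -2.46 in *Rap1* KI/KI muscle. It was well above background in WT2, KI1 and KI3 only. *Ltf*, the lactoferrin gene, measured -1.92, -3.58 and -7.45 in WT and 1.53, -6.00 and -1.84 in *Rap1* KI/KI muscle, and was not well above background in WT3 and KI2. Its WT muscles spread the most of any member, with an SD of 2.84, and KI3 lay close to WT1.

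*Mpo* measured -4.67, -4.28 and -4.67 in WT and 0.46, -5.23 and -2.38 in *Rap1* KI/KI muscle, where KI2 was the lowest of the 6. *Retnlg* measured -5.43, -4.45 and -5.26 in WT and 0.73, -5.22 and -2.53 in *Rap1* KI/KI muscle, and was well above background in WT2, KI1 and KI3. For both genes KI1 and KI3 stood above the WT muscles and KI2 did not.

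The other 2 members, each read by 1 probe, behaved differently. Whether these probes measured neutrophil transcripts was not tested. *Elane* measured -0.05, 0.08 and -0.41 in WT and 0.86, -0.42 and 0.04 in *Rap1* KI/KI muscle, so that KI1 was the highest array but by less than 1 log2 unit. *Csf3r* measured 6.30, 6.36 and 6.72 in WT and 6.52, 6.79 and 7.07 in *Rap1* KI/KI muscle, with KI3 the highest and overlapping groups. Over all members, KI1 was the highest muscle for 8 of 9 genes, and KI3 was highest or second for 8 of 9.

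**Figure D1:**
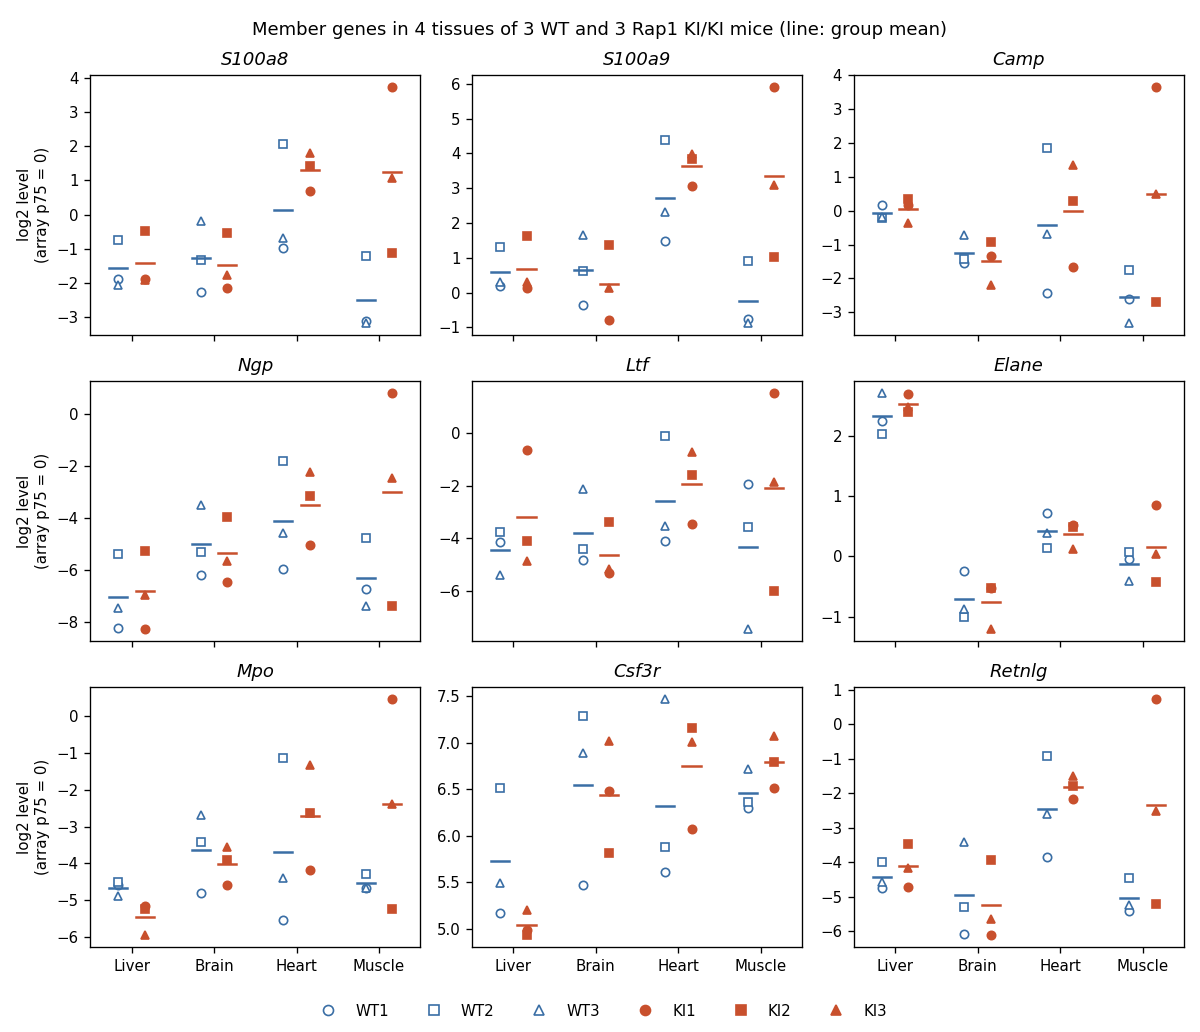
Levels of the 9 genes on all 24 arrays, in log2 units with the 75th percentile of each array at 0 (vertical axis, 1 panel for each gene with its own scale), by tissue (horizontal axis). Blue open symbols are WT and red filled symbols *Rap1* KI/KI mice, circles, squares and triangles are mice 1, 2 and 3 of each genotype, and lines are means of 3 mice. In muscle the KI1 circle is the highest point for every gene except *Csf3r*, whereas in heart the WT2 square is highest for 7 of 9.

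Relative to the mean of the WT muscles, the median of the members was 5.85 in KI1, with a range from 0.06 to 7.11 and 9 of 9 genes above 0. It was 2.52 in KI3, with a range from 0.17 to 3.85 and again 9 of 9 above 0. In KI2 it was -0.18, from -1.68 to 1.37, with 3 of 9 above 0. *S100a8* was thus 75.1-fold above the WT mean in KI1 and 11.8-fold in KI3.

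Comparing the genotypes, *S100a8* averaged -2.49 ± 1.12 (SD, n = 3) in WT and 1.23 ± 2.44 in *Rap1* KI/KI muscle, a difference of 3.72 with a standard error of 1.18, or 13.2-fold. For *S100a9* the difference was 3.59 with a standard error of 1.16, from -0.24 ± 1.00 to 3.35 ± 2.45. The unadjusted p from limma was 0.016 for *S100a8* and 0.018 for *S100a9*, and the adjusted p over all 32396 probes tested in muscle was 0.94 for each. The differences of the specific granule genes were 3.30 (standard error 1.89) for *Ngp*, 3.04 (1.43) for *Camp* and 2.21 (2.06) for *Ltf*. Those of *Retnlg*, *Mpo*, *Csf3r* and *Elane* were 2.70 (1.32), 2.16 (1.25), 0.33 (0.23) and 0.29 (0.35). Their unadjusted p ran from 0.07 to 0.43 and every adjusted p was 0.94.

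No member therefore passed the adjusted threshold of 0.05 in muscle (limma, 0 of 9), and 0% of all tested probes did. At an unadjusted p under 0.05 the count was 2 of 9 members, against 2.47% of all tested probes. All 3 *Rap1* KI/KI muscles lay above all 3 WT muscles for the same 2 genes, against 2.36% of probes. The median difference of the 9 members was 2.70, whereas the median over the 15290 genes tested was -0.07. Ranked from the most positive difference, *S100a8* was number 17, *S100a9* 20, *Ngp* 32 and *Camp* 47 of 32396 probes. In whole tissue, a change in the number of neutrophils or their precursors and a change in RNA per cell cannot be told apart.

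The size of these differences depended on KI1. Without KI1 the median difference of the members in muscle was 1.17, and without KI2 it was 4.16. Between WT1 and KI1, both 5 months old, the median difference was 6.15 over 9 genes with 1 mouse in each group. Between the 2 WT and 2 *Rap1* KI/KI mice of 2 months it was 1.17, with 8 of 9 genes higher. Within that age *S100a8* differed by 2.16 and *S100a9* by 2.05, and KI3 stood above KI2 for both. With normexp background correction the median difference was 1.42.

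**Figure D2:**
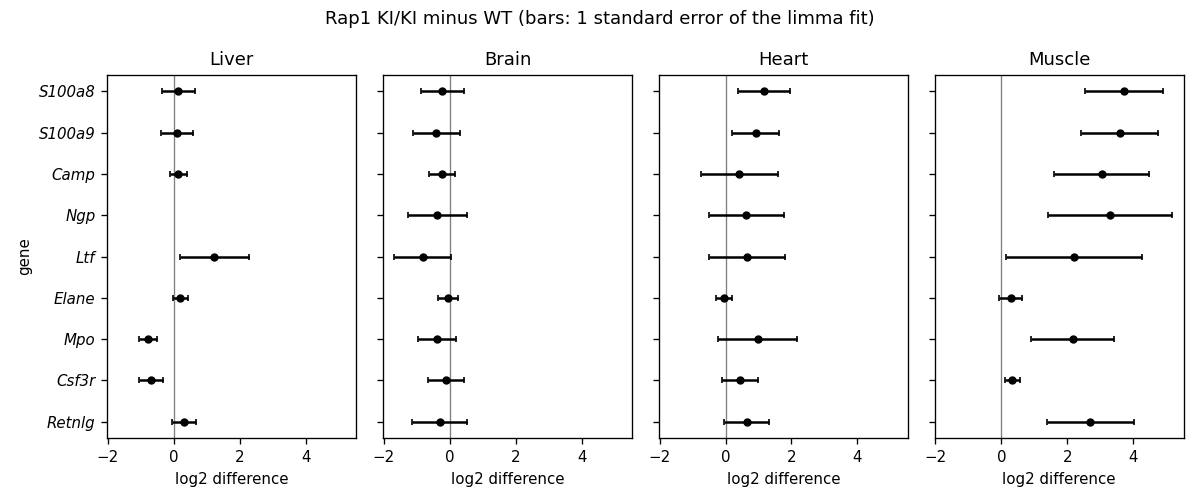
*Rap1* KI/KI minus WT in log2 units (horizontal axis) for each gene (vertical axis) in the 4 tissues, with bars of 1 standard error from the limma fit of 3 against 3 arrays. *Ngp* was not tested in liver. The muscle differences of 7 genes lie between 2.16 and 3.72 with wide bars, and those in liver and brain lie between -0.82 and 1.23.

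In heart, 7 of the 9 members rose and fell together over the 6 arrays. The mean was higher in *Rap1* KI/KI heart for 8 of 9 members, and the groups overlapped for every member. *S100a8* measured -0.98, 2.05 and -0.69 in WT1, WT2 and WT3 and 0.69, 1.41 and 1.79 in KI1, KI2 and KI3. *Camp* measured -2.43, 1.84 and -0.69 in WT and -1.65, 0.28 and 1.35 in *Rap1* KI/KI heart. *Mpo* measured -5.53, -1.14 and -4.39 in WT and -4.17, -2.63 and -1.32 in *Rap1* KI/KI heart. For each of these genes the WT2 heart was the highest and the WT1 heart the lowest of the 6. Over all members, WT2 was highest for 7 of 9 and WT1 lowest for 8 of 9.

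The heart difference was 1.17 (standard error 0.80) for *S100a8*, 0.91 (0.72) for *S100a9* and 0.98 (1.20) for *Mpo*. It was -0.04 (0.24) for *Elane*, the only member with a negative value. Limma called 0 of 9 members at an adjusted p under 0.05, against 0% of the 34862 probes tested. At an unadjusted p under 0.05 the count was 0 of 9, against 7.51% of probes. For no member did the groups separate with *Rap1* KI/KI above, against 6.03% of probes. The median difference was 0.64, beside -0.08 over all 16117 genes tested. It rose to 1.73 without WT2 and was 0.06 without WT1. Within the 2-month mice the median difference was 0.50, with 9 of 9 genes higher, and between WT1 and KI1 it was 0.90, with 8 of 9 higher. The heart arrays lay on 2 slides. On the slide of mice 1 and 2 of each genotype the median difference was 0.08, and on the slide of WT3 and KI3 it was 2.04. A second feature of the same hearts was the adipocyte list, whose median difference was 3.82 over 9 genes, with 8 of 9 higher. Relative to the WT mean, its median was -2.42, 1.29 and 1.15 in WT1, WT2 and WT3 and 4.63, 1.07 and 5.76 in KI1, KI2 and KI3. It was thus lowest in the WT1 heart, as were 8 of 9 members, and highest in the KI3 heart, whereas 7 of 9 members were highest in WT2. The part of this tissue in the heart values of the members was not tested.

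In liver, *S100a9* measured 0.18, 1.30 and 0.29 in WT and 0.13, 1.62 and 0.29 in *Rap1* KI/KI mice, so that mouse 2 of each genotype was the highest. *Ltf* measured -4.13, -3.77 and -5.40 in WT and -0.64, -4.11 and -4.85 in *Rap1* KI/KI liver, where KI1 stood apart from the other 5 arrays. In the same liver *Camp* was at 0.18, as in WT1, and *S100a8* was at -1.87, beside -1.89 in WT1. *Ngp* was well above background only in KI2, at -5.25, and was not tested. Limma called 0 of 8 tested members, against 0% of 35253 probes, and the median difference was 0.14, beside 0.03 over all genes tested.

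*Mpo* and *Csf3r* were lower on average in *Rap1* KI/KI liver, and the other 6 tested members differed by 0.09 to 1.23. *Csf3r* measured 5.17, 6.52 and 5.49 in WT and 4.99, 4.93 and 5.20 in *Rap1* KI/KI liver, a difference of -0.69 with a standard error of 0.36 (limma, unadjusted p = 0.094), and KI3 lay just above WT1. *Mpo* measured -4.59, -4.52 and -4.89 in WT and -5.17, -5.24 and -5.96 in *Rap1* KI/KI liver, the last of these not well above background. Its difference was -0.79 with a standard error of 0.27, the unadjusted p from limma was 0.021 and the adjusted p was 1. It was the only 1 of 8 members at an unadjusted p under 0.05, against 2.13% of probes. All 3 *Rap1* KI/KI livers lay below all 3 WT livers for this gene, as for 3.07% of probes, and for no member did they lie above, against 2.77%.

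In brain, *S100a8* measured -2.27, -1.31 and -0.18 in WT and -2.13, -0.54 and -1.75 in *Rap1* KI/KI mice. *Ngp* measured -6.18, -5.32 and -3.48 in WT and -6.47, -3.97 and -5.64 in *Rap1* KI/KI brain, well above background in WT2, WT3 and KI2. The WT3 brain was the highest for 7 of 9 members and KI2 the second for 7. Differences between the genotypes were negative for 9 of 9 members, from -0.82 for *Ltf* to -0.04 for *Elane*, with a median of -0.30 beside 0.01 over all genes. Limma called 0 of 9 at an adjusted p under 0.05, against 0% of 37846 probes, and 0 of 9 at an unadjusted p under 0.05, against 2.62%. In 0 of 9 members did all *Rap1* KI/KI brains lie above all WT brains, against 4% of probes. Without WT3 the median difference was 0.10. Slide and age coincide in brain. The median was -0.43 within the 2-month mice and -0.04 for WT1 and KI1.

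Across the 4 tissues, the genotype difference of *S100a8* was largest in muscle, as was that of *S100a9*. The test of whether the genotype effect differed between tissues gave an unadjusted p of 0.042 for *S100a8* and 0.038 for *S100a9* (limma F test over 24 arrays), and an adjusted p of 1 for every member. Of the 9 members 0 passed the adjusted threshold, against 0% of 43536 probes, and 2 of 9 had an unadjusted p under 0.05, against 2.94%. With the mouse as a replicate block these p-values were 0.039 and 0.036, and the adjusted p stayed at 1.

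**Figure D3:**
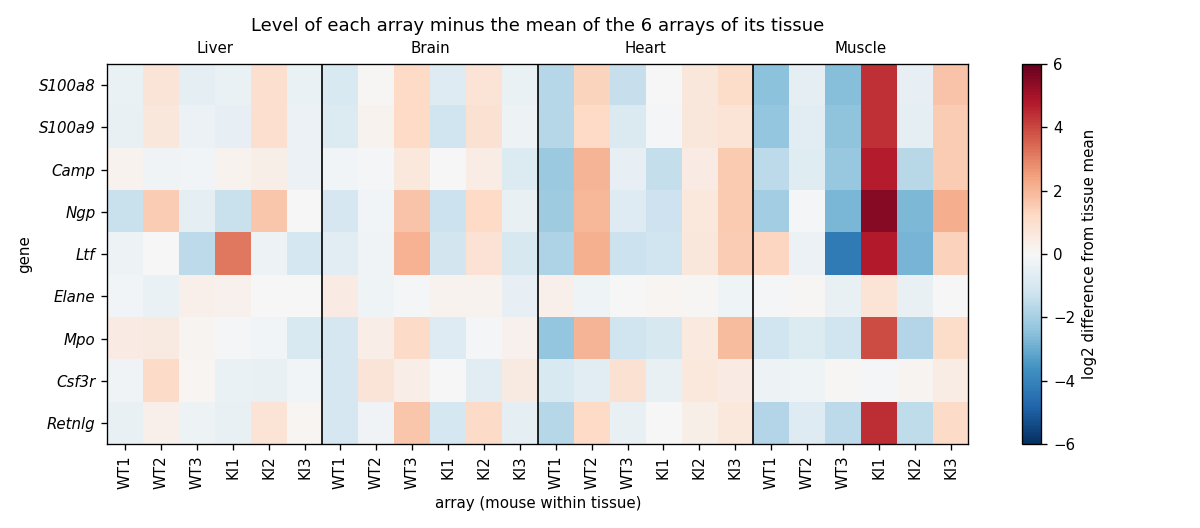
Level of each gene (rows) on each array (columns, by tissue and mouse) minus the mean of the 6 arrays of its tissue, in log2 units from blue (below) to red (above). The KI1 muscle is red for 8 of 9 genes, *Csf3r* excepted, and the WT2 heart, the KI3 heart and the WT3 brain are lighter red for the same 7 genes.

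All members but *Elane* and *Csf3r* rose and fell together on single arrays in muscle, heart and brain. After centring each gene on the mean of its tissue, the mean over all 9 members was 3.63 in the KI1 muscle and 1.23 in the KI3 muscle. The next highest arrays were the WT2 heart (1.23), the WT3 brain (1.10) and the KI3 heart (1.03). The lowest were the WT3 muscle (-1.93), the WT1 heart (-1.58) and the KI2 muscle (-1.30). High values thus occurred in both genotypes. KI1 was at 3.63 in muscle, -0.60 in heart, -0.67 in brain and 0.05 in liver. KI3 was high in both muscle and heart but at -0.35 in brain and in liver. WT1 was below 0 in all 4 tissues, at -1.17 in muscle, -1.58 in heart, -0.67 in brain and -0.30 in liver.

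Over the 24 arrays, the correlation of a gene with the mean of the other 8 was 0.95 for *S100a9*, *Camp* and *Retnlg*, 0.94 for *S100a8* and *Ngp*, 0.91 for *Mpo* and 0.77 for *Ltf*. It was 0.30 for *Elane* and 0.11 for *Csf3r*. These points share arrays and mice, so the correlations are descriptions. Leaving out the 2 arrays farthest from the median gave 0.64 to 0.92 for the first 7 genes, -0.28 for *Elane* and 0.22 for *Csf3r*. Within the 6 heart arrays the first 7 genes had values from 0.92 to 0.99, and within the 6 brain arrays from 0.69 to 0.99. Within the 6 livers they ran from -0.17 for *Ltf* to 0.89 for *S100a8*. *Elane* correlated at 0.93 in muscle but at -0.89 in heart and -0.32 in brain, and *Csf3r* at 0.07, 0.20 and 0.14.

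The genes outside the members whose tissue-centred levels were most like the mean of the members, of 18581 ranked, were *Itgb2l* and *Chil3* (r = 0.92 each) and *Ctsg* (0.91), followed by *Cebpe* (0.86), *Nfe2* (0.84), *Prss34*, *Kel* and *Gata1* (0.83 each), *Fpr2* (0.82) and *Xkr4* (0.79). *Ctsg* encodes cathepsin G, an azurophil granule protease, and *Cebpe* the transcription factor of specific granule formation. *Fpr2* is a formyl peptide receptor of neutrophils and *Prss34* a protease of mast cells and basophils. *Gata1* and *Kel* are genes of red cell precursors, and *Nfe2* is a transcription factor of megakaryocytes and red cell precursors. *Itgb2l* was well above background on 3 arrays, *Gata1* and *Xkr4* on 8. Without the KI1 and WT3 muscles, r stayed at 0.86 for *Itgb2l* and *Ctsg* and fell to 0.49 for *Xkr4*. Of the 50 genes most like the members, 22 were on any of the 17 lists. Of the 50, 9 were on the list of other neutrophil genes, 3 on that of early granulocyte precursors, 3 on that of red cells and 0 on that of B cells. In the same order, these lists held 27, 14, 18 and 18 genes with a probe, beside the 18581 genes ranked. Genes of the platelet, mast cell, bone and heart muscle lists were also among them. Those on no list included the muscle genes *Myl3*, *Myh7* and *Myh7b*, picked after their values were seen.

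Other neutrophil genes were often not well above background in the WT and KI2 muscles, and less often so in KI1 and KI3. Of 27 with a probe, 13 were tested, 12 of them higher and 1 lower in *Rap1* KI/KI muscle, with a median difference of 0.87 and 0 called by limma at an adjusted p under 0.05. At an unadjusted p under 0.05 the count was 5 of 13, against 2.47% of all tested probes. *Chil3*, a chitinase-like protein of myeloid cells, measured -3.68, -3.41 and -4.50 in WT and 1.02, -2.47 and -1.49 in *Rap1* KI/KI muscle. *Chil3* was named for its likeness to the members over the same arrays, so its high level in KI1 is not a separate observation. The brightest genes of the list were *Hp* (difference 0.39), *Itgam* (0.43), *Trem1* (-0.33) and *Wfdc21* (1.21), which are also made by other cells. On the list, 13 to 16 of 27 genes were not well above background in the WT muscles, against 4 in KI1, 14 in KI2 and 8 in KI3. The median over the tested genes, relative to the WT mean, was 1.95 in KI1, 0.66 in KI2 and 0.47 in KI3. The summed level of the list was 5.43 to 6.18 in WT and 5.73 to 7.44 in *Rap1* KI/KI muscle.

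The list of early granulocyte precursor genes had a median difference of 0.04 in muscle, with 5 of 9 tested genes higher and 0 called. The brightest were *Cd63*, *Gstm1*, *Serpinb1a* and *Nkg7*, which are also made by other cells, with differences from -0.31 to -0.06. *Cebpe* measured -4.89, -4.76 and -5.51 in WT and -0.96, -3.84 and -3.69 in *Rap1* KI/KI muscle, and *Ctsg* measured -5.15, -4.49 and -4.65 in WT and -1.23, -5.28 and -3.83 in *Rap1* KI/KI muscle. *Ctsg* and *Cebpe* were named because their levels were among the most like those of the members over the same arrays. Their high levels in KI1 are therefore not a separate observation on this list.

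The regulators of granulocyte production gave no common direction in muscle. Of 17 genes, 11 were tested in muscle, 6 higher and 5 lower, with a median difference of 0.02 and 0 called. *Cebpb* (0.02), *Cebpd* (0.43), *Cxcl12* (-0.08) and *Stat3* (-0.16) were the brightest. The receptors and cofactors through which the calprotectin subunits act had a median difference of 0.04 over 6 tested genes, from -0.31 for *Bsg* to 0.18 for *Cd14* among the brightest 4, with *Myd88* at 0.02 and *Ly96* at 0.14.

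Markers of other blood cells differed in how far they moved in muscle. In the red cell list, 9 of 11 tested genes were higher, with a median of 0.43, and the medians relative to WT were 0.56 in KI1, 0.34 in KI2 and 0.48 in KI3. With limma, 4 of these 11 had an unadjusted p under 0.05, against 2.47% of all tested probes, and 0 were called. *Hbb-bt*, a globin gene, measured 6.48, 5.70 and 6.60 in WT and 7.61, 7.20 and 7.01 in *Rap1* KI/KI muscle, a difference of 1.02 (standard error 0.30, limma adjusted p = 0.94). The summed red cell level was 9.25 to 9.88 in WT and 9.96 to 10.38 in *Rap1* KI/KI muscle. The platelet and megakaryocyte list had a median difference of 0.95, and its medians relative to WT were 1.37 in KI1, 1.05 in KI2 and 0.52 in KI3. Of its 6 tested genes 3 were higher, each at an unadjusted p under 0.05 with all *Rap1* KI/KI muscles above all WT muscles, and 3 were lower. The higher ones were *Ppbp* (2.27), *Treml1* (1.95) and *Gp9* (2.49), the last of these named after its values were seen. *Ppbp*, a platelet chemokine, measured -3.49, -3.58 and -4.26 in WT and -0.61, -1.97 and -1.93 in *Rap1* KI/KI muscle. *Pf4*, another platelet chemokine, which macrophages also express, differed by -0.27. For both *Hbb-bt* and *Ppbp* the groups did not overlap, so that KI2 was above WT for these genes whereas it was not for most members. The summed platelet level was 3.60 to 4.00 in WT and 3.31 to 4.14 in *Rap1* KI/KI muscle.

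Lymphocyte and macrophage genes had median differences of 0.12 (B cells), -0.02 (T and NK cells) and -0.02 (monocytes and macrophages) in muscle. Their medians in KI1 relative to WT were 0.58 for B cells, -0.41 for T and NK cells and -0.70 for monocytes and macrophages, and the last of these was 0.70 in KI2. *Csf1r*, the receptor that marks macrophages, differed by 0.00 (standard error 0.35) and *Lyz1* by 0.10 (0.37). The proliferation list was higher for 9 of 9 tested genes, with a median of 0.55, and 0 were called. With limma, 4 of these 9 had an unadjusted p under 0.05, against 2.47% of all tested probes. *Mki67* measured -1.52, -1.12 and -0.96 in WT and -0.27, -0.33 and -0.48 in *Rap1* KI/KI muscle. The bone list had a median of -0.05 over 10 tested genes, with *Col1a1* at -0.13 and *Acp5* at 1.23.

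The adipocyte list had a median difference of 1.03 in muscle, with 10 of 10 genes higher and 0 called. Relative to the WT mean, its median was 1.87, -1.74 and 0.09 in the WT muscles and 0.25, 2.66 and 0.37 in KI1, KI2 and KI3, so that KI2 was highest and the groups overlapped. The hepatocyte list had a median of -1.26 over 7 tested genes, with -2.07 in KI1, -2.14 in KI2 and 0.41 in KI3.

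Some genes of slow and heart muscle stood high in KI1 and KI3 muscle. The genes named here, apart from *Myl2*, *Actc1* and *Myh6*, were picked after their values were seen. *Myl3*, the light chain of slow and cardiac muscle, measured 0.71, 3.31 and 2.78 in WT and 8.21, -0.04 and 5.87 in *Rap1* KI/KI muscle. *Myh7*, the slow myosin heavy chain, measured -0.25, -1.54 and 1.14 in WT and 6.26, -1.42 and 3.75 in *Rap1* KI/KI muscle. *Myl2*, on the heart muscle list, measured -0.63, 1.17 and 1.72 in WT and 5.83, -0.54 and 3.27 in *Rap1* KI/KI muscle. *Myh7b*, another myosin heavy chain gene, measured -3.75, -2.88 and -1.16 in WT and 1.83, -3.03 and -0.50 in *Rap1* KI/KI muscle. The order of the 3 *Rap1* KI/KI muscles for these genes was that of all members but *Csf3r*. On the heart muscle list 3 of 6 tested genes were higher, with a median difference of 0.02. *Actc1*, the cardiac actin gene, measured 6.80 to 9.35 in WT and 5.37, 9.14 and 9.85 in *Rap1* KI/KI muscle. *Myh6*, a cardiac myosin heavy chain gene, measured -1.25, -0.02 and 1.80 in WT and 2.00, -0.01 and -0.01 in *Rap1* KI/KI muscle.

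The nervous system list had a median of 0.44 over 6 tested genes, with 0.89 in KI3 and 0.11 in KI1. Of 2 genes picked after their values were seen, *Gap43*, a gene of growing axons, measured 0.40 in KI3 and -4.55 to -3.22 on the other 5 arrays. *Bcan*, a gene of glia, measured -7.13, -5.94 and -7.08 in WT and -1.74, -6.13 and 2.65 in *Rap1* KI/KI muscle, with the highest level in KI3 and not in KI1. The skeletal muscle list itself had a median difference of -0.07 over 8 genes and a summed level of 12.28 to 12.30 in WT and 12.08 to 12.42 in *Rap1* KI/KI muscle. The part that other cell types or muscle regions have in the differences of the members was not tested.

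**Figure D4:**
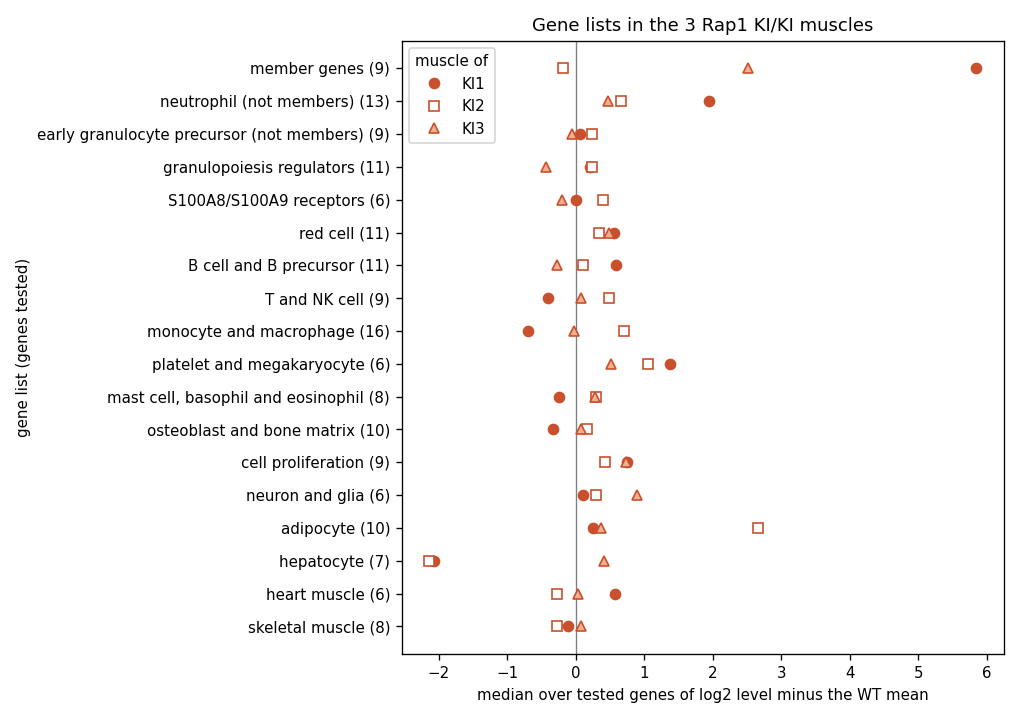
Median over the tested genes of each list (vertical axis, number of genes tested in brackets) of the log2 level in each *Rap1* KI/KI muscle minus the mean of the 3 WT muscles (horizontal axis). Circles, squares and triangles are KI1, KI2 and KI3. The members are at 5.85, -0.18 and 2.52, and the other neutrophil genes at 1.95, 0.66 and 0.47.

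Among the WT mice, the tissues differed in the members by gene. All livers shared a slide and all muscles shared another. Liver shared no slide with heart or muscle, nor brain with muscle, so tissue and slide cannot be told apart in these contrasts. Slide was not in the fit of the tissue contrasts. The F test of limma over 12 WT arrays called 3 of 9 members at an adjusted p under 0.05, against 81.8% of 40691 probes. These were *Elane* (adjusted p = 7.9e-06), *S100a9* (0.02) and *Retnlg* (0.024). *Camp* (0.064) and *S100a8* (0.074) fell short, and the adjusted p of *Ngp*, *Csf3r*, *Ltf* and *Mpo* ran from 0.12 to 0.57. Without WT3 only *Elane* passed. Without WT2, *S100a8*, *S100a9*, *Camp*, *Ngp* and *Elane* passed and *Retnlg* did not.

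*S100a9* averaged 2.72 ± 1.49 (SD, n = 3) in heart, 0.64 ± 1.01 in brain, 0.59 ± 0.62 in liver and -0.24 ± 1.00 in muscle. Heart was higher than liver by 2.13 (limma adjusted p = 0.037) and higher than brain by 2.09 (0.037), and muscle minus heart was -2.96 (0.013). Brain, liver and muscle did not differ beyond their spread, with adjusted p from 0.35 to 0.96. *S100a8* had the same order, with 0.13 ± 1.67 in heart, -1.25 ± 1.05 in brain, -1.56 ± 0.72 in liver and -2.49 ± 1.12 in muscle. Only muscle minus heart passed for this gene (-2.62, limma adjusted p = 0.038), and neighbours in the order did not differ beyond their spread.

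*Retnlg* averaged -2.46 ± 1.47 in heart, -4.43 ± 0.39 in liver, -4.94 ± 1.37 in brain and -5.05 ± 0.52 in muscle. Heart stood above brain by 2.48 (adjusted p = 0.015) and above liver by 1.97 (0.048). The last of these was 0.051 with the mouse as a replicate block. Muscle minus heart was -2.58 (0.024). Liver, brain and muscle did not differ beyond their spread. In muscle the gene was well above background on 1 of 3 arrays and in brain on 2 of 3.

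*Camp* had another order, with liver at -0.08 ± 0.23, heart at -0.43 ± 2.15, brain at -1.24 ± 0.44 and muscle at -2.56 ± 0.78. Of its contrasts, muscle minus liver (-2.48, adjusted p = 0.025) passed and no other did. The only probe of *Elane*, the elastase gene, was highest in liver at 2.33 ± 0.35. Heart followed at 0.42 ± 0.29, muscle at -0.13 ± 0.25 and brain at -0.71 ± 0.40. Heart minus liver was -1.92 (limma adjusted p = 0.00015), heart exceeded brain by 1.13 (0.0053), and muscle did not differ from heart (0.18) or brain (0.1) beyond its spread. The 3 livers of *Rap1* KI/KI mice, at 2.41 to 2.71, lay in the WT range.

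*Mpo*, *Ltf* and *Csf3r* did not differ between any 2 WT tissues at an adjusted p under 0.05. *Csf3r* averaged 5.73 ± 0.71 in liver, 6.32 ± 1.01 in heart, 6.46 ± 0.23 in muscle and 6.55 ± 0.96 in brain. *Mpo* and *Ltf* spread widely in heart, with SDs of 2.28 and 2.15, because the WT2 heart was at -1.14 and -0.11. *Ngp* was not well above background in any WT liver. Its WT heart mean was 5.8-fold above liver, with each liver counted at no less than the lowest well-above-background level of its array. The hearts of WT1, WT2 and WT3, at -5.94, -1.82 and -4.58, overlapped their livers, at -8.24, -5.38 and -7.46. The gene was well above background in 2 of 3 hearts, and the limma adjusted p of the contrast was 0.051. The share of all probes called at an adjusted p under 0.05 was 67.6% for brain minus liver (1 of 9 members), 50.9% for heart minus liver (3 of 9), 55.4% for muscle minus liver (2 of 9), 56% for heart minus brain (3 of 9), 58.9% for muscle minus brain (0 of 9) and 29.4% for muscle minus heart (3 of 9). Leaving out at least 1 of the 3 WT mice ended each pairwise call named above for *S100a8*, *S100a9*, *Camp* and *Retnlg*, with adjusted p up to 0.22 for *Retnlg* between heart and liver without WT2. The calls of *Elane* against liver held, and its heart to brain contrast had an adjusted p of 0.054 without WT3.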

How the data were processed

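RNA of 4 tissues of 6 mice was hybridized to 24 1-color Agilent arrays. The authors deposited intensity values, which are spot signals that Feature Extraction 12.0.3.1 had corrected for background and detrended, without scaling of one array to another. The series table, whose score values the authors deposited as well, holds z-scores of log10 signals within each array. Recomputed z-scores were within 0.005 of these.

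From each log2 signal the log2 of its array's 75th percentile was subtracted. The 3671 control spots per array and outlier-flagged spots were left out and spots of a probe averaged. Names came from probe accessions through RefSeq (GRCm38.p6). For *Camp*, the probe with the higher mean over all arrays stands for the gene. Probes well above background on at least 3 arrays of the comparison were tested two-sided with limma 3.58.1 (R 4.3.3) and Benjamini-Hochberg adjustment over every probe tested. Version 1.17.8 of data.table and 1.5.0 of statmod were also used. Genotypes were compared within tissues, tissues among WT mice, and the genotype effect between tissues over all arrays. The tests were tried on simulated data.

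The members and lists were chosen with earlier results of these data known. Named were all members, of each other list at most the 4 brightest genes in muscle and the 10 genes most like the members (by correlation over 24 arrays), and any others are stated as picked after their values were seen. Samples were grouped by their labels, and the same mouse gave all 4 tissues. Deviations of the same mouse in 2 tissues correlated from -0.32 to 0.38 over 36 pairs (median 0.09). Precision is limited by the number of arrays, and 3 mice against 3 cannot reach an exact permutation p below 0.1. Alternatives were quantile normalization, normexp (offset 50), no filter, a stricter filter, 1 fit over the 24 arrays (plain, or with mouse as replicate block), age or slide as a block, eBayes with trend and robust, the series table, the mean over probes and each mouse left out.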

Additional observations from a re-analysis of the deposited data

How the results depend on the processing

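No alternative made a genotype call among the members in any tissue, nor a call of a genotype effect that differs between tissues. The median difference in muscle was positive under every alternative, and was 2.70 with the mouse as a replicate block. The count of members that differed between WT tissues was 3, and also 3 with the mouse as a replicate block. It was 5 with normexp background correction, 5 with all 24 arrays, and from 1 to 5 with a WT mouse left out. Among pairwise WT contrasts, the mouse as a replicate block ended the call for *Retnlg* between heart and liver alone. The normexp correction ended that for *Retnlg* between muscle and heart (-0.84, adjusted p = 0.1). With all 24 arrays, muscle minus heart was -1.34 for *S100a8* (0.13), -1.62 for *S100a9* (0.062) and -1.55 for *Retnlg* (0.1), and muscle minus liver was -1.02 for *Camp* (0.27). Without a filter, *Retnlg* between heart and liver had an adjusted p of 0.062. Quantile normalization ended the call for *S100a9* between heart and brain (0.06). The causes were not tested.

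Small genotype differences changed sign when a mouse was left out. In liver the ranges were *S100a8* -0.32 to 0.55, *S100a9* -0.38 to 0.44, *Camp* -0.01 to 0.34, *Ltf* -0.05 to 2.06 and *Retnlg* -0.02 to 0.60. In brain they were *S100a8* -0.73 to 0.31, *S100a9* -0.97 to 0.11, *Camp* -0.53 to 0.11, *Ngp* -1.06 to 0.39, *Ltf* -1.45 to 0.01, *Elane* -0.19 to 0.19, *Mpo* -0.97 to 0.10, *Csf3r* -0.65 to 0.26 and *Retnlg* -0.95 to 0.45. In heart they were *Camp* -0.58 to 1.56, *Ngp* -0.28 to 1.78, *Ltf* -0.12 to 1.87, *Elane* -0.18 to 0.11 and *Retnlg* -0.06 to 1.41, and in muscle *Elane* -0.06 to 0.58. With normexp background correction, *Retnlg* in liver was -0.04 and *Ngp* in heart -0.01. The muscle differences of the other 8 members kept their sign. The signal over background limits *Ngp*, *Ltf*, *Mpo* and *Retnlg*, which were not well above background on some arrays.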
